A study of Mus musculus with 6 samples.

Results

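The superoxide dismutases, catalase, glutathione peroxidases and peroxiredoxins remove superoxide and peroxides, and 10 of their genes were followed in mouse spleen after total body irradiation. The genes were Sod1, Sod2, Sod3, Cat, Gpx1, Gpx3, Gpx4, Gpx7, Prdx1 and Prdx2. They were taken by symbol from the annotation of a one-colour (Cy3) Agilent microarray, on which they had 12 of the 55681 distinct probes, or 10 of 34741 gene names. Cat and Prdx1 had 2 probes each and the other genes 1 each. RNA came from spleens of B10.BALB-16.C2A mice, a strain that the series title calls congenic. One group was killed 24 h after 900 cGy of X-rays to the whole body (3 arrays), and the other, at 0 cGy, consisted of resting mice (3 arrays). Each array carried RNA pooled from 3 mice, so the spread between arrays is a spread between pools. Age and sex are not given in the sources used here, both groups share the strain, and single cell types were not separated.

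Superoxide dismutases turn superoxide, the radical formed by respiration, by oxidases and by ionising radiation in water, into hydrogen peroxide. Catalase breaks hydrogen peroxide down in peroxisomes, glutathione peroxidases reduce it and lipid peroxides with glutathione, and peroxiredoxins do so with a reactive cysteine that thioredoxin restores. Mouse spleen holds lymphocytes, macrophages, stroma and red cell precursors, and mature red cells are known for large amounts of catalase, peroxiredoxin 2 and glutathione peroxidase 1.

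The sequences of 4 probes are shown, because the values below rest on what these 60 bases capture, and for Cat and Gpx4 the genomic span shows that the target is spliced mRNA. They are from the deposited files, which give positions on mm9. The Gpx1 probe (plus strand, chr9:108242276-108242335) is the single probe of a gene that fell. The brighter Prdx1 probe (plus strand, chr4:116371818-116371877) is that of a gene that rose. The second Cat probe (minus strand, chr2:103297086-103300428) and the Gpx4 probe (plus strand, chr10:79518691-79518842) spread over 3343 and 152 bases of the genome. No part of the 4 sequences is set in capitals.
Gpx1 probe: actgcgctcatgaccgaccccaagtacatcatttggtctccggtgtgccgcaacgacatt
Prdx1 probe: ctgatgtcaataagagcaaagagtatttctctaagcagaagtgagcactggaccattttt
Cat probe: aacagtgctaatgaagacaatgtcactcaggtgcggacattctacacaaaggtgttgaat
Gpx4 probe: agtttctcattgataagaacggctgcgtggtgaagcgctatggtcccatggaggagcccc

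The antioxidant response element, the DNA motif of the stress factor NRF2, was searched as TGACNNNGC on both strands of the 250 bases before each transcription start in RefSeq's promoter sequences (GRCm38.p6). The motif was found in 10.2% of all 32851 windows. A gene was counted if any of its windows held a match, so counts of genes are not on the scale of this share. Among the related genes described further below, 4 of the 42 with a window held a match. Windows were at hand for 9 of the 10 genes, all but Sod3, and 2 of the 9 held a match, those of Prdx1 and Sod1. Both are printed with the match, here read on the opposite strand, in capitals, because Prdx1 rose on the arrays and Sod1 did not pass the test. The Prdx1 match starts 133 bases and the Sod1 match 56 bases before the start site, and neither is shown to be a bound site.
Prdx1, chr4:116685349-116685598, plus strand: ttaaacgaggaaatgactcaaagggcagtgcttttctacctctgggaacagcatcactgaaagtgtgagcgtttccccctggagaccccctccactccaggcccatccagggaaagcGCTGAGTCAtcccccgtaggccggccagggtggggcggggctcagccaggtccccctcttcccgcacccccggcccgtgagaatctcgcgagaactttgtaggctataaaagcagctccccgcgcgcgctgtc
Sod1, chr16:90220512-90220761, plus strand: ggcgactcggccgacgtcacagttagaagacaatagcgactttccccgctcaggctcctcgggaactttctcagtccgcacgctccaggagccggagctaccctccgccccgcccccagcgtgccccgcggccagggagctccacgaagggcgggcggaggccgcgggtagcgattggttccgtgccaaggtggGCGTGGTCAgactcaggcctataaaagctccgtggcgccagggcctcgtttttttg

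Values below are relative signals, the log2 processed intensity of a probe minus the log2 of its array's 75th percentile, and changes are 900 cGy minus 0 cGy. The level of one probe says nothing about the level of another. Each array had between 39031 and 41261 probes well above background, and no spot was saturated. All 12 probes of the 10 genes were well above background on all 6 arrays. The 6 p53 target genes used to check the irradiation label were all higher at 900 cGy. Of 8 spleen identity genes 7 had a probe, and all 7 were above background in both groups. All 7 were also higher at 900 cGy, with log2 changes between 0.77 and 1.90, so their level was not stable.

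The 10 genes divided. Gpx3, Gpx7, Sod3 and Prdx1 rose, Prdx2 and Gpx1 fell, and Sod1, Sod2, Cat and Gpx4 did not pass the threshold, an adjusted p under 0.05 in limma with Benjamini-Hochberg adjustment over all 39680 probes tested. By probe, 5 of 12 (41.7%) were higher and 2 (16.7%) were lower. Over all probes tested 26.4% were higher and 31% were lower, or 57.5% either way, and with spike-in scaling the share of calls that were higher was 28.4% in place of 46.0%. The groups did not overlap for 9 of the 12 probes (75%), against 65.7% of all probes. By brightest probe, 6 of the 10 genes changed and 8 had groups that did not overlap, against 58.6% and 67.3% of 26639 genes, so that the count of changed genes lies near the background. Their median log2 change was 0.24, against -0.06 over all genes.

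**Figure D1:**
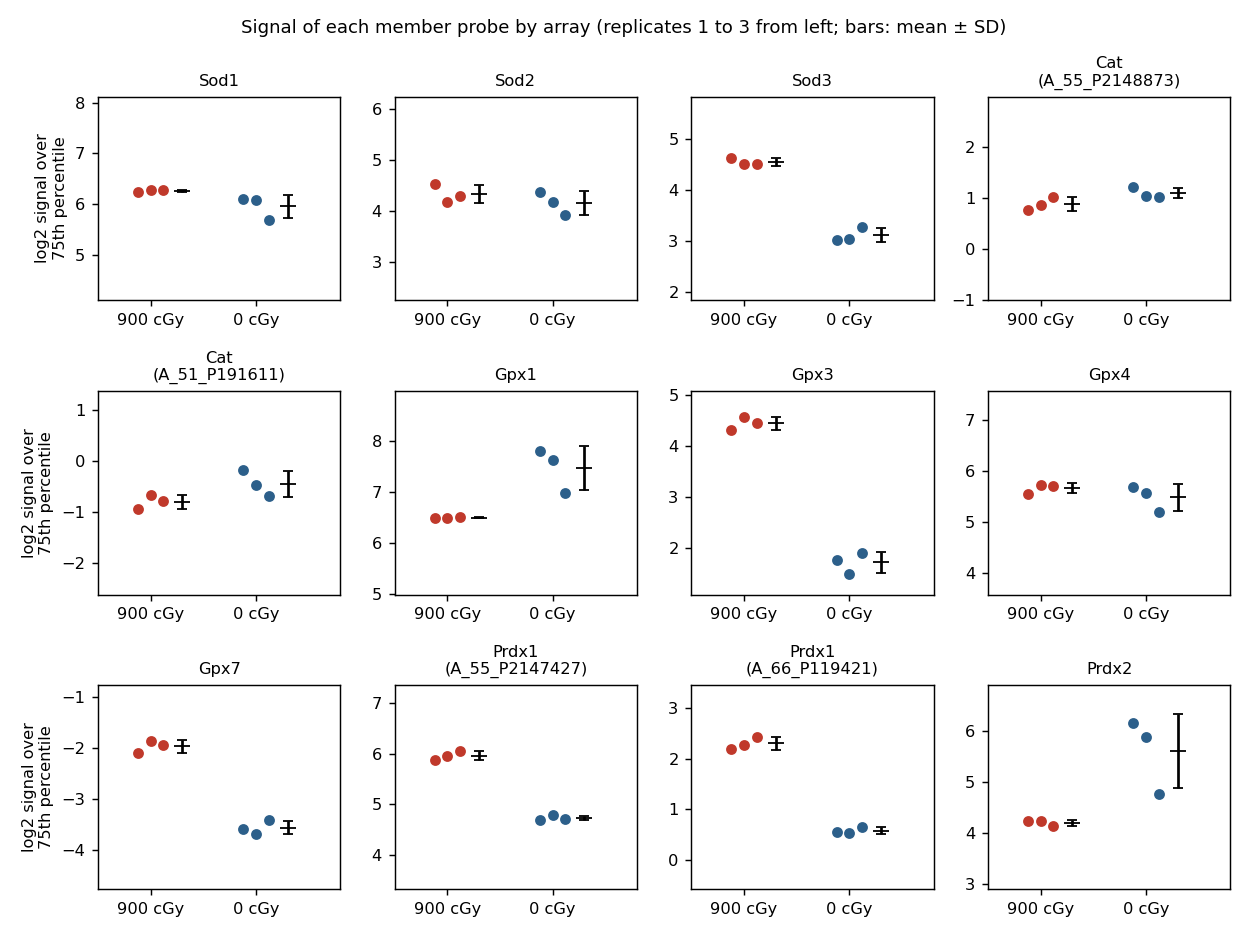
Relative signal (log2 over the array's 75th percentile) of each of the 12 probes, with the 3 arrays at 900 cGy on the left of each panel and the 3 at 0 cGy on the right, and mean ± SD beside them; every panel spans 4 log2 units. Gpx3, Gpx7, Sod3 and both Prdx1 probes lie higher at 900 cGy with a clear gap, and Gpx1 and Prdx2 lie lower, with 0 cGy replicate 3 nearest to the irradiated arrays.

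Among the superoxide dismutases only the extracellular enzyme changed past the threshold. Sod3, which is secreted and held in the matrix of vessel walls and other tissue, had relative signals of 4.63, 4.49 and 4.51 on the arrays at 900 cGy, against 3.02, 3.03 and 3.27 at 0 cGy. The groups lay apart by 1.23, more than the spread inside either. The mean was 4.54 ± 0.07 at 900 cGy and 3.11 ± 0.14 at 0 cGy (SD, n = 3 pools each), a 2.71-fold increase (log2 change 1.44 ± 0.10 SE, limma adjusted p = 0.000118). Its probe lies on chr5:52760685-52760744 of mm9.

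Sod1, the copper-zinc enzyme of the cytosol, had 6.25, 6.28 and 6.28 at 900 cGy, against 6.11, 6.08 and 5.70 at 0 cGy. The irradiated arrays were all above the others, but only by 0.14, and 0 cGy replicate 3 was the lowest. The log2 change of 0.30 (95% interval -0.00 to 0.61) did not pass (limma adjusted p = 0.0833), although it passed with normexp and quantile normalization (0.44, adjusted p = 0.00508) and with an intensity trend in the variance (adjusted p = 0.0399), and stood at 0.02 with spike-in scaling. Sod2, the manganese enzyme of mitochondria, had 4.52, 4.17 and 4.29 at 900 cGy, against 4.36, 4.18 and 3.91 at 0 cGy. These groups overlapped, and the log2 change was 0.18 (95% interval -0.19 to 0.54, limma adjusted p = 0.359). With spike-in scaling it was -0.11 and did not pass either.

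Catalase did not pass with either probe. The sequence of the brighter probe holds a run of alternating c and a, and whether that run captured other RNA was not tested. The brighter probe had 0.76, 0.87 and 1.02 at 900 cGy, against 1.21, 1.05 and 1.03 at 0 cGy. The irradiated arrays were lower by a margin of 0.01 only, and the log2 change was -0.21 (95% interval -0.47 to 0.04, limma adjusted p = 0.132). The spliced probe had -0.94, -0.68 and -0.78 at 900 cGy, against -0.18, -0.48 and -0.70 at 0 cGy. Its groups overlapped at a log2 change of -0.35 (95% interval -0.72 to 0.02, limma adjusted p = 0.0914). Both probes passed as lower with spike-in scaling (-0.50 and -0.64, adjusted p = 0.0285 and 0.0181), and the spliced probe also passed without 0 cGy replicate 3 (-0.47, adjusted p = 0.0287).

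The glutathione peroxidases went in both directions. Gpx3, the secreted enzyme of blood plasma, had 4.32, 4.57 and 4.46 at 900 cGy, against 1.76, 1.50 and 1.91 at 0 cGy. It had the largest change of the 10 genes, 6.62-fold (log2 change 2.73 ± 0.13 SE, limma adjusted p = 6.57e-05), with means of 4.45 ± 0.12 at 900 cGy and 1.72 ± 0.21 at 0 cGy (SD, n = 3 pools each). The gap between the groups was 2.42, and the change lay between 2.44 and 2.82 over 18 alternative processings. Its probe lies on chr11:54723436-54723495 of mm9.

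Gpx7, a member of the endoplasmic reticulum that uses cysteine in place of selenocysteine and takes part in oxidative protein folding, had -2.10, -1.85 and -1.94 at 900 cGy. At 0 cGy it had -3.58, -3.68 and -3.42, with every unirradiated array below every irradiated one. The means were -1.96 ± 0.13 at 900 cGy and -3.56 ± 0.13 at 0 cGy (SD, n = 3 pools each), a 3.02-fold increase (log2 change 1.60 ± 0.11 SE, limma adjusted p = 0.00011). With normexp and quantile normalization the change was 1.15. The probe lies on chr4:108072995-108073054 of mm9.

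Gpx1, the selenium enzyme of cytosol and mitochondria, had 6.49, 6.50 and 6.52 at 900 cGy, against 7.81, 7.62 and 6.98 at 0 cGy. The irradiated arrays agreed closely, while the unirradiated ones spread widely, with replicate 3 lowest. Gpx1 fell 1.96-fold (log2 change -0.97 ± 0.21 SE, limma adjusted p = 0.00793). Its call was lost with the slide row as a block (-0.99, adjusted p = 0.0557) and with slide row 1 alone (adjusted p = 0.0971), where 1 irradiated array stood against 3. Gpx4, which reduces lipid peroxides inside membranes and restrains ferroptosis, had 5.54, 5.72 and 5.71 at 900 cGy, against 5.67, 5.57 and 5.18 at 0 cGy. The groups overlapped, and the log2 change of 0.18 did not pass (95% interval -0.17 to 0.54, limma adjusted p = 0.333). With spike-in scaling it was -0.11.

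The peroxiredoxins, both enzymes of the cytosol that work with thioredoxin, moved apart. The brighter Prdx1 probe had 5.87, 5.94 and 6.05 at 900 cGy, against 4.70, 4.79 and 4.71 at 0 cGy. The second Prdx1 probe (chr4:116372422-116372481 of mm9) had 2.20, 2.26 and 2.43 at 900 cGy, against 0.55, 0.54 and 0.66 at 0 cGy. Both probes rose with gaps of over 1 log2 unit between the groups, by 2.33-fold (log2 change 1.22 ± 0.09 SE, limma adjusted p = 0.000116) and 3.27-fold (1.71 ± 0.10 SE, limma adjusted p = 7.69e-05).

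Prdx2, one of the most abundant proteins of red cells, had 4.24, 4.23 and 4.13 at 900 cGy, against 6.15, 5.89 and 4.77 at 0 cGy. All irradiated arrays were lower, and 0 cGy replicate 3 stood closest to them. The means were 4.20 ± 0.06 at 900 cGy and 5.60 ± 0.73 at 0 cGy (SD, n = 3 pools each), a 2.65-fold decrease (log2 change -1.40 ± 0.34 SE, limma adjusted p = 0.0123). Without 0 cGy replicate 3 the change was -1.82. As for Gpx1, the call was lost with the slide row as a block (-1.36, adjusted p = 0.0835) and with slide row 1 alone (adjusted p = 0.125). The probe lies on chr8:87498153-87498212 of mm9.

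**Figure D2:**
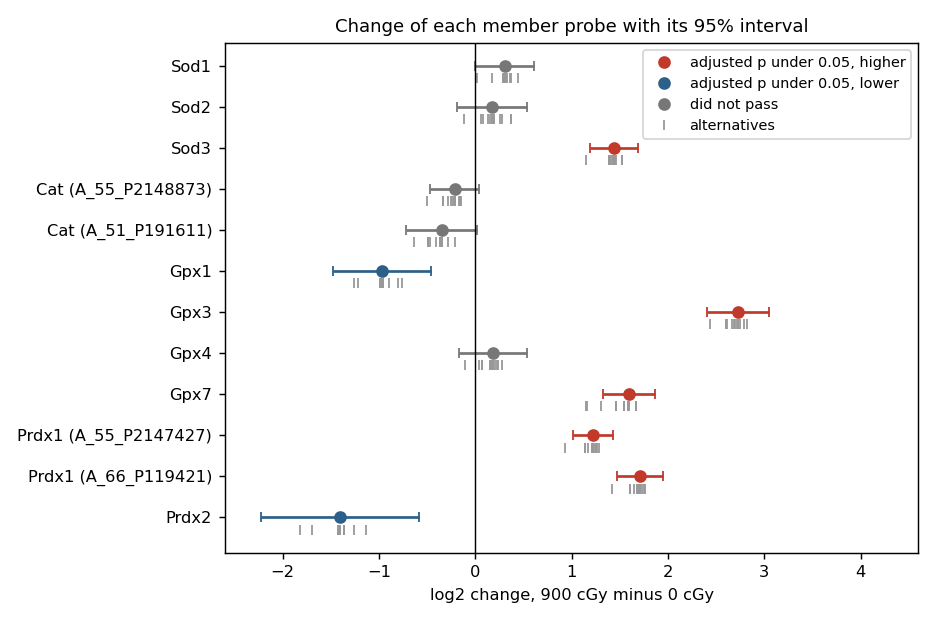
Change of each probe (log2, 900 cGy minus 0 cGy) with its 95% interval from limma, and below it, as grey ticks, the change under each alternative processing. The intervals of Sod1, Sod2, Cat and Gpx4 reach or cross 0, those of Gpx3, Gpx7, Sod3 and Prdx1 lie above 1, and those of Gpx1 and Prdx2 lie below 0.

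Related enzymes were set against each other within the arrays, in 4 pairs. The signal of Gpx3 over Gpx1 changed by 3.70 on the log2 scale, and in each irradiated array this difference was above that of each unirradiated array. The same was so for Prdx1 over Prdx2, which changed by 2.62, and for Sod3 over Sod1, which changed by 1.13. For each of these 3 pairs the two-sided exact permutation p was 0.1, the smallest that 3 against 3 arrays allow, or 0.133 after adjustment over the 4 pairs, so that the test could not pass 0.05. Sod2 over Sod1 changed by -0.13 with overlapping groups (exact permutation p = 0.4).

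The 2 genes that fell also varied most between unirradiated pools. In 0 cGy replicate 3, the signal minus the average over the other 2 pools was -1.25 for Prdx2 and -0.74 for Gpx1 (log2). In the same array this difference was -1.52 for the mean of 10 red cell precursor markers, -1.42 for 8 genes of dividing cells and -1.41 for 8 neutrophil genes. The difference was -0.63 for megakaryocyte, 0.37 for B cell, 0.38 for T cell and 0.40 for plasma cell markers. It was 0.27 for stroma, 0.13 for macrophage, 0.13 for endothelial and -0.12 for adipocyte markers. For pancreas markers the difference was 1.34, with replicate 3 (0.58) between the other 2 pools (-4.38 and 2.87). Among the other genes it was -0.44 for Gpx4, -0.39 for Sod1, -0.36 for Sod2, and -0.10 and -0.37 for the Cat probes. It was 0.24 for Sod3, 0.28 for Gpx3, 0.21 for Gpx7, and -0.04 and 0.12 for the Prdx1 probes.

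Markers of several cell types moved with the dose, and their part in the changes of the 10 genes was not tested. All 10 red cell precursor markers were lower at 900 cGy, as Prdx2 and Gpx1 were. Catalase, also named above for mature red cells, did not pass with either probe (-0.21 and -0.35). The summed signal of the red cell precursor markers, in multiples of the 75th percentile, was 11.6 to 17.5 at 900 cGy and 146 to 368 at 0 cGy. In irradiated pools Rhd never rose well above background. All 8 B cell markers (50.01 to 55.7 at 900 cGy, 289.6 to 375 at 0 cGy), 7 of 8 T cell markers (30.7 to 31.6 at 900 cGy, 72.1 to 105 at 0 cGy) and all 8 genes of dividing cells (16.2 to 17.3 at 900 cGy, 64.5 to 190 at 0 cGy) were lower too. The remaining T cell marker, Cd4, was higher (log2 change 0.31, limma adjusted p = 0.0397). Of 8 neutrophil markers 4 were lower and 4 did not pass (502 to 573 at 900 cGy, 446 to 1010 at 0 cGy). Markers that were higher, as Gpx3, Sod3, Gpx7 and Prdx1 were, included all 10 of macrophages (661 to 683 at 900 cGy, 199.7 to 214 at 0 cGy) and all 8 of stroma (202 to 210.2 at 900 cGy, 73.6 to 85.3 at 0 cGy). All 5 plasma cell markers were higher (190.1 to 208 at 900 cGy, 69.3 to 91.6 at 0 cGy), and of 5 megakaryocyte markers 1 was (154 to 175 at 900 cGy, 109 to 177 at 0 cGy). All 8 adipocyte markers (101 to 108 at 900 cGy, 7.59 to 11.7 at 0 cGy), 6 of 8 endothelial markers (177 to 183 at 900 cGy, 71.7 to 78.5 at 0 cGy) and all 10 exocrine pancreas markers (1049.6 to 1410.4 at 900 cGy, 2.08 to 102 at 0 cGy) were higher too. Pancreas markers had mean relative signals of -4.38, 2.87 and 0.58 in unirradiated replicates 1 to 3. Adipocytes and exocrine pancreas are not among the spleen cell types named above. In bulk RNA, changes in cell number, in RNA per cell and in other tissue taken along with the spleen cannot be told apart.

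**Figure D3:**
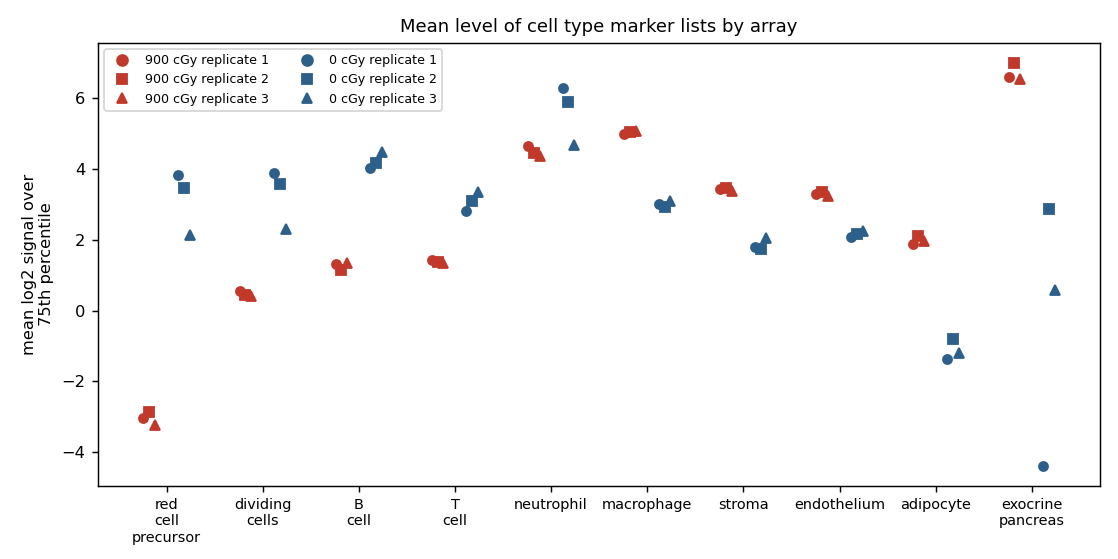
Mean relative signal (log2) of cell type marker lists on each array, 900 cGy in red left of 0 cGy in blue, with a symbol for each replicate. Red cell precursor and dividing cell markers are low at 900 cGy and lowest among unirradiated arrays in replicate 3, and macrophage, stroma, endothelium, adipocyte and pancreas markers are high at 900 cGy.

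Genes that serve the same chemistry also went both ways. In 8 lists of related genes, 49 genes were tested by their brightest probe, and 19 (38.8%) rose, 15 (30.6%) fell and 15 did not pass. Over all genes 28% were higher and 30.6% lower. The median change was 0.10. With spike-in scaling 9 of the related genes rose and 17 fell, and of all 39680 probes 6841 were higher and 17253 lower. The higher counts given below were then 2 in the thioredoxin system, 1 in glutathione synthesis and recycling, 2 in NADPH supply and 2 among oxidases. Gpx5 and Gpx6 were not well above background on any array.

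The list of the thioredoxin system, which recharges peroxiredoxins, had 7 genes, of which 4 rose, 2 fell and 1 did not pass. Among those that rose was Txnip, an inhibitor of thioredoxin (0.65, limma adjusted p = 0.00319, and 0.56 with its second probe). With spike-in scaling Txnip was not among the 2 that stayed higher. Srxn1, the sulfiredoxin that repairs overoxidised peroxiredoxin, had mean relative signals of 2.48 ± 0.12 at 900 cGy and 1.21 ± 0.26 at 0 cGy (SD, n = 3 pools each; log2 change 1.27, limma adjusted p = 0.000575). Thioredoxin itself, Txn1, rose by 1.07 (limma adjusted p = 0.000531). Cytosolic thioredoxin reductase, Txnrd1, named after its value was seen, rose by 0.53, but stood at 0.25 and did not pass with spike-in scaling (limma adjusted p = 0.201). The mitochondrial counterparts fell: Txnrd2 by a log2 change of -1.22 and Txn2 by -0.46, or -1.13 with its second probe. In 0 cGy replicate 3, Txnrd2 differed from the average of the other 2 pools by -1.02. This difference was -0.41 and -0.16 for the Txn2 probes, and -0.40 and -0.32 for Srxn1 and Txn1, which rose. Among the other 4 peroxiredoxins, mitochondrial Prdx3 fell (-0.79), with a replicate 3 difference of -0.61. Prdx5 (0.29) and Prdx6 (-0.08) did not pass. The 3 other probes of Prdx6 were between -0.52 and -0.49 and did not pass either. Prdx4, of the endoplasmic reticulum, rose by 0.53 with its brightest probe, while its second probe was lower (-0.33, limma adjusted p = 0.0398). With spike-in scaling the brightest probe stood at 0.24 and did not pass.

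Of the other 4 glutathione peroxidases, Gpx8, which like Gpx7 belongs to the endoplasmic reticulum, rose 2.98-fold (log2 change 1.58, limma adjusted p = 0.000182). Gpx2, best known from gut epithelium, fell 2.06-fold (-1.04, limma adjusted p = 0.00025). In the list of glutathione synthesis and recycling 3 of 8 rose, 2 fell and 3 did not pass. Gsr, the glutathione reductase, rose by 0.90, and its second probe by 0.88. Gclc, the catalytic subunit that begins glutathione synthesis, fell (-0.87). Of the other synthesis genes, Gss rose by 0.66 (limma adjusted p = 0.00491) and Gclm did not pass (-0.79, limma adjusted p = 0.0600). With spike-in scaling Gss did not stay higher. Glrx5, a mitochondrial glutaredoxin of iron-sulfur cluster assembly that red cell formation in zebrafish needs, fell 3.92-fold (-1.97, limma adjusted p = 0.00306). In 0 cGy replicate 3, Gclc differed from the average of the other 2 pools by -0.72, Glrx5 by -1.27 and Gsr, which rose, by -0.68.

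Enzymes that supply NADPH to both systems were higher by brightest probe in 5 of 6 cases, none fell and Pgd did not pass (0.40). Nnt rose by 0.31 with its brightest probe, but its 2 other probes (0.22 and -0.21) did not pass. Me1, the cytosolic malic enzyme, had mean relative signals of 1.70 ± 0.03 at 900 cGy and -0.26 ± 0.29 at 0 cGy (SD, n = 3 pools each; log2 change 1.97, limma adjusted p = 0.000145), and its 2 other probes rose by 1.83 and 2.07. Cytosolic Idh1 and mitochondrial Idh2 rose by 1.40 and 0.57. With spike-in scaling only Me1 and Idh1 of the 6 passed, and Idh2 (0.28), G6pdx (0.27) and Nnt (0.02) did not. The count of 5 was 3 without 0 cGy replicate 2 or without any 1 of the arrays at 900 cGy. The adipocyte markers, higher on the same arrays, are given above, and their part was not tested.

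Oxidases that make superoxide or hydrogen peroxide rose in 4 of 10 cases, fell in 2 and did not pass in 4. Xdh, the xanthine oxidoreductase of purine breakdown, rose 4.12-fold (log2 change 2.04, limma adjusted p = 0.000105), and Nox4, which releases hydrogen peroxide, 3.12-fold (1.64), with 2 further probes at 1.32 and 0.29, of which the smaller did not pass (limma adjusted p = 0.117). With normexp and quantile normalization the Nox4 change was 0.82. In the phagocyte oxidase, the cytosolic subunits Ncf4 and Ncf1 fell (-1.49 and -0.92), and the catalytic subunit Cybb stood at -0.01. All 3 haem peroxidases tested, which use peroxide in granulocytes and secretions, fell: Epx of eosinophils 9.02-fold (-3.17, limma adjusted p = 0.000166), Mpo of neutrophil granules 3.35-fold (-1.74) and Lpo by a log2 change of -0.42. Neutrophil markers, given above, were lower in 4 of 8 cases, and in 0 cGy replicate 3 Mpo differed from the average of the other 2 pools by -1.48 and these markers by -1.41; their part was not tested. The call of Lpo was lost without any 1 of 5 arrays, all but 900 cGy replicate 2 (limma adjusted p between 0.0591 and 0.109). Of 9 genes that supply copper or selenium, 1 rose, 4 fell and 4 did not pass, and 2 fell without 900 cGy replicate 2 or 3. Selenop, the secreted selenium carrier, rose 2.67-fold (log2 change 1.42, limma adjusted p = 0.000126), and Eefsec and Secisbp2, which insert selenocysteine during translation, fell (-0.69 and -0.60).

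With the slide row as a block, which sets 1 irradiated array against 3, the calls of Gclc (-0.82), Gsr (0.90), Mpo (-1.55), Prdx3 (-0.83), Prdx4 (0.45), Txn2 (-0.37) and Txnrd2 (-1.16) were lost at changes of similar size. With slide row 1 alone, Eefsec (-0.66), Glrx5 (-1.95), Idh2 (0.55), Ncf1 (-0.63), Secisbp2 (-0.68) and Txnrd1 (0.45) did not pass either. The call of Txn2 was also lost without 0 cGy replicate 1 or 2 or 900 cGy replicate 2 or 3 (adjusted p between 0.0758 and 0.0878), though its second probe had a larger change.

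**Figure D4:**
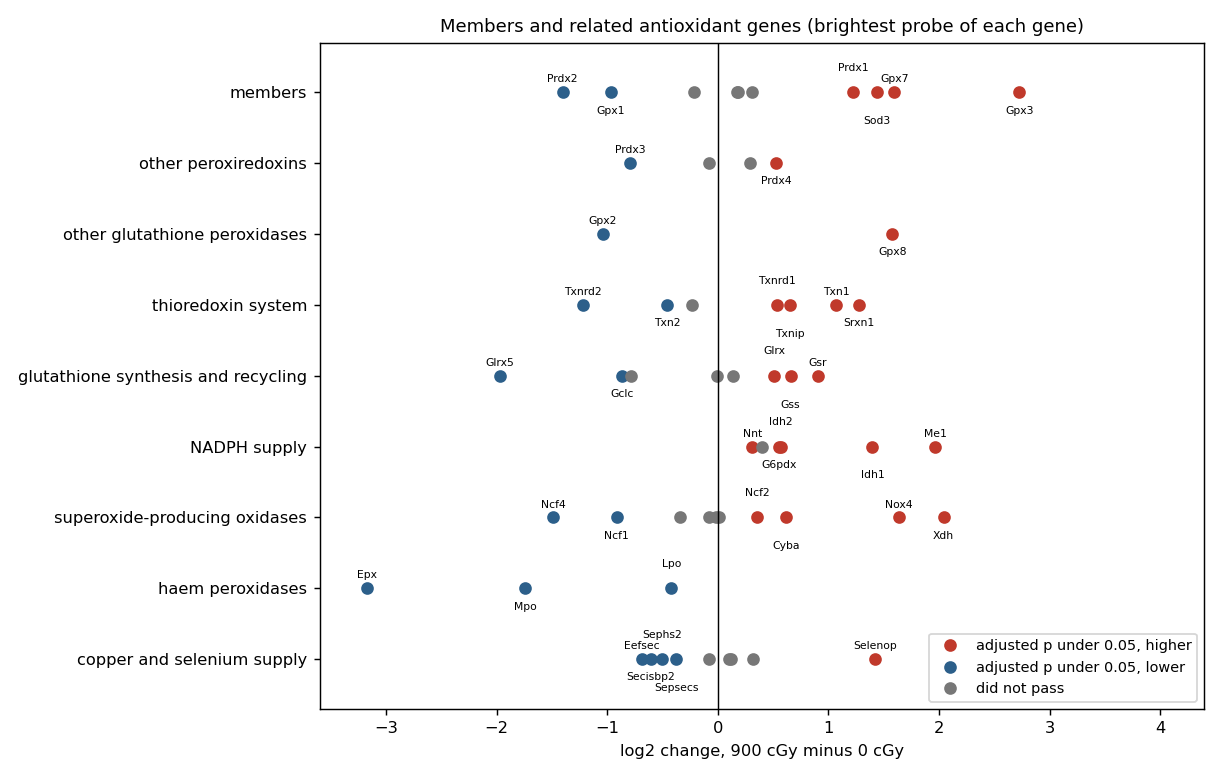
Change (log2, 900 cGy minus 0 cGy) of the 10 genes and of 49 related genes, 1 point per gene by its brightest probe, grouped by role. Red and blue points passed an adjusted p of 0.05 as higher and lower and carry the gene's name, and every list except NADPH supply and haem peroxidases holds points of both colours.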

How the data were processed

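Total RNA of spleen was hybridised to 6 one-colour arrays of 1 slide, all in 1 scan; row 1 of the slide held the 3 arrays at 0 cGy and 900 cGy replicate 1, row 2 the other 2. Per the labels' protocols, RNA was isolated with TRIzol and RNeasy. Per the file headers, Agilent Feature Extraction 10.5.1.1 gave the deposited intensity values: mean and local background intensity, and a processed intensity, background-subtracted and detrended, with surrogates for weak spots, not normalized between arrays. The authors' deposited log2 value table matched the scanner values scaled to the 75th percentile and centred per probe (r at least 0.99996, slopes between 0.9998 and 1.0002); its column medians were 0.047, -0.0059 and -0.047 at 0 cGy and -0.025, 0.018 and -0.0082 at 900 cGy. It served as an alternative.

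Control spots and flagged spots (91 to 146 per array) were removed, and repeat spots of a probe averaged. A probe was tested if either group had it well above background on each of its 3 arrays, using limma 3.58.1 in R 4.3.3 (lmFit and eBayes, two-sided), a step checked on simulated data. Genes other than the 10 were named through RefSeq's GRCm38.p6 table where it matched the probe's accession (27229), symbol (3586) or synonym (565), and 24301 probes kept the name in the files. The 10 genes, the lists and the tests were chosen with earlier results of these data known. Among related genes, the text names, per list, the 3 largest changes past the threshold and any against the majority. Prdx5, Prdx6, Pgd, G6pdx, Nnt, Gss, Gclm, Cybb, Txnip and Txnrd1 were added after their values were seen. The 18 alternatives covered background correction, scaling, filter, variance model, blocks, the authors' table and leaving out each array. The number of arrays limits the precision.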

Additional observations from a re-analysis of the deposited data

How the results depend on the processing

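Over 18 alternatives, 5 or 6 of the 12 probes were higher, or 4 where only the brightest probe of a gene was tested, and 4 or 5 genes were higher, the additional one being Sod1. The count of lower probes was 4 with spike-in scaling, which added both Cat probes and moved the median of all probes to -0.36, against -0.07 with the 75th percentile and -0.14 to 0.01 under the other alternatives. No probe or gene of the 10 was lower past the threshold with the slide row as a block or with slide row 1 alone (0 and 0 by limma; at an unadjusted p under 0.05, 2 probes with the block and 1 with row 1 alone). Both fits rest on 1 irradiated array against 3 unirradiated ones, with changes of -0.99 for Gpx1 and -1.36 for Prdx2. Over all probes, too, fewer were called in each direction in both fits than in the main one. The loss of calls was therefore not particular to the genes named here. With spike-in scaling 6841 of all 39680 probes were higher and 17253 lower, in place of 10487 and 12317. Of related genes, 9 were higher with spike-in scaling and 9 with slide row 1 alone, in place of 19, and 8 were lower with the slide row as a block and 4 with row 1 alone, in place of 15. Sod2 over Sod1 was 0.087 with row 1 alone.

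Without 1 array at a time, the counts were 5 probes and 4 genes higher, 2 to 3 probes and 2 genes lower, and 15 to 19 related genes higher and 11 to 15 lower. Over all probes these fits called 9009 to 10796 higher and 10112 to 13109 lower. The additional lower probe was of Cat, without 0 cGy replicate 3. The pair differences then ranged from 3.51 to 4.04 for Gpx3 over Gpx1, 2.34 to 3.03 for Prdx1 over Prdx2, 1.02 to 1.34 for Sod3 over Sod1 and -0.24 to -0.04 for Sod2 over Sod1. With the replicate number as a block, 5 probes were higher and 2 lower, and 17 and 14 related genes; of the named calls that of Lpo was lost (adjusted p = 0.0825), and 3 NADPH supply genes were higher in place of 5, as without the filter on dim probes. Same-numbered arrays deviated together with r of 0.07, 0.11 and -0.01, so the numbers were not taken as pairs. Without the filter on dim probes Lpo and Txn2 did not pass (adjusted p = 0.0729 and 0.0506).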
